A study of Mus musculus with 6 samples.

Results

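The genes described here are those of fibroblast growth factor (Fgf) signalling: the Fgf ligands, the receptors Fgfr1 to Fgfr4 and Fgfrl1, the Sprouty and Spred inhibitors, the phosphatase Dusp6 and the transcription factor Etv4. They were selected by a rule on gene symbols that uses no measured value, though the gene family was picked with earlier results of these data known, and comprised 36 of the 18193 genes that had a probe set annotated to a single gene. Etv1 belongs to the same family, but its 3 probe sets each name several genes, so it was not used here. These 36 genes had 81 probe sets, and where a gene had several, the brightest on average across the 6 arrays stood for it. The lungs came from mouse embryos at stage E16.5 and were microdissected, and the labels call the replicates biological. Of these, 3 carried the genotype Hopx -/- and are called Hopx-null, and 3 were Hopx +/+ and are called wild-type. The strain background is given as mixed. The construction of the Hopx allele is not given in the sources used here, and the labels name no treatment. Each lung was hybridised to 1 Affymetrix array, and values are on a log2 scale, so a difference of 1 is a 2-fold change.

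Fgf ligands bind receptor tyrosine kinases together with heparan sulphate, and the activated receptor signals through the RAS-ERK kinase relay. In the embryonic lung, Fgf10 from the mesenchyme acts on Fgfr2 in the epithelium and drives bud outgrowth, while Fgf9 from the mesothelium and epithelium acts on the mesenchyme. ERK activity switches on its own inhibitors, the Sprouty proteins and Dusp6, and the Ets factors Etv4 and Etv5, which are therefore commonly read as a gauge of the pathway. Hopx encodes a small atypical homeodomain protein without DNA-binding activity, expressed in the lung epithelium.

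Hopx itself, the targeted gene, read 4.71 ± 0.21 (SD, n = 3) in Hopx-null against 10.65 ± 0.28 (SD, n = 3) in wild-type lungs at its s_at probe set, and 10.49 ± 0.15 against 12.40 ± 0.13 at its a_at probe set. Array-to-array correlations over all probe sets lay between 0.989 and 0.995. Lung markers were present in every sample: the mean over 6 distal epithelial genes, among them Sftpc and Nkx2-1, lay between 11.57 and 11.66. Some differences between single lungs touch the results below. Wild-type replicates 2 and 3 carried Y-linked signal (means over Eif2s3y, Kdm5d and Uty of 9.24 and 9.12, against 2.47 to 2.57 in the other lungs), so both lungs with that signal were wild-type. Cartilage markers were also highest in wild-type replicates 2 and 3. Hopx-null replicate 3 had the largest gap between 3' and 5' control probes, a measure of RNA integrity or amplification, at 1.51 for actin against 1.15 to 1.25 elsewhere. The number of arrays limits the precision.

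No gene of the Fgf pathway differed between the genotypes by limma after Benjamini-Hochberg adjustment: 0 of 36 passed an adjusted p of 0.05, and the smallest adjusted p was 0.878. Over all genes 0.00550% passed, which is Hopx alone, and over all probe sets 0.00444%, its 2 probe sets. At an unadjusted p under 0.05 there were 3 of the 36, Fgf16, Fgf12 and Fgfr1, beside 4.54% of all genes (2.90% upward and 1.64% downward). For 24 of the 36 genes the 95% interval of the difference stayed within 0.5 on the log2 scale in both directions, and 68.9% of all genes did so. Among genes above the median brightness it was 13 of 17, beside 72.7%. The median log2 difference over the 36 genes was 0.01, the same as over all genes. Hopx-null lungs were higher in 22 and lower in 14 genes, where 52.2% of all genes were higher. Centring each array on its median gave 17 higher and 19 lower. In 6 genes the 3 Hopx-null lungs did not overlap the 3 wild-type lungs, 2 of them higher (Fgf12 and Fgfr4) and 4 lower (Fgfr1, Fgf4, Fgf8 and Fgf16), and 10.5% of all genes showed no overlap (6.21% higher and 4.31% lower). Dropping wild-type replicate 1 raised that count to 15 genes (21.3% of all genes), while dropping Hopx-null replicate 2 or wild-type replicate 2 gave 10 (19.7% and 25.1%), and 9 followed from dropping Hopx-null replicate 1 (24.7%). At an unadjusted p under 0.05, 1 gene was left when Hopx-null replicate 3 was dropped (3.08% of all genes) or wild-type replicate 3 was (3.06%). Dropping any other lung left 2, when between 3.35% and 7.69% of all genes passed.

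**Figure D1:**
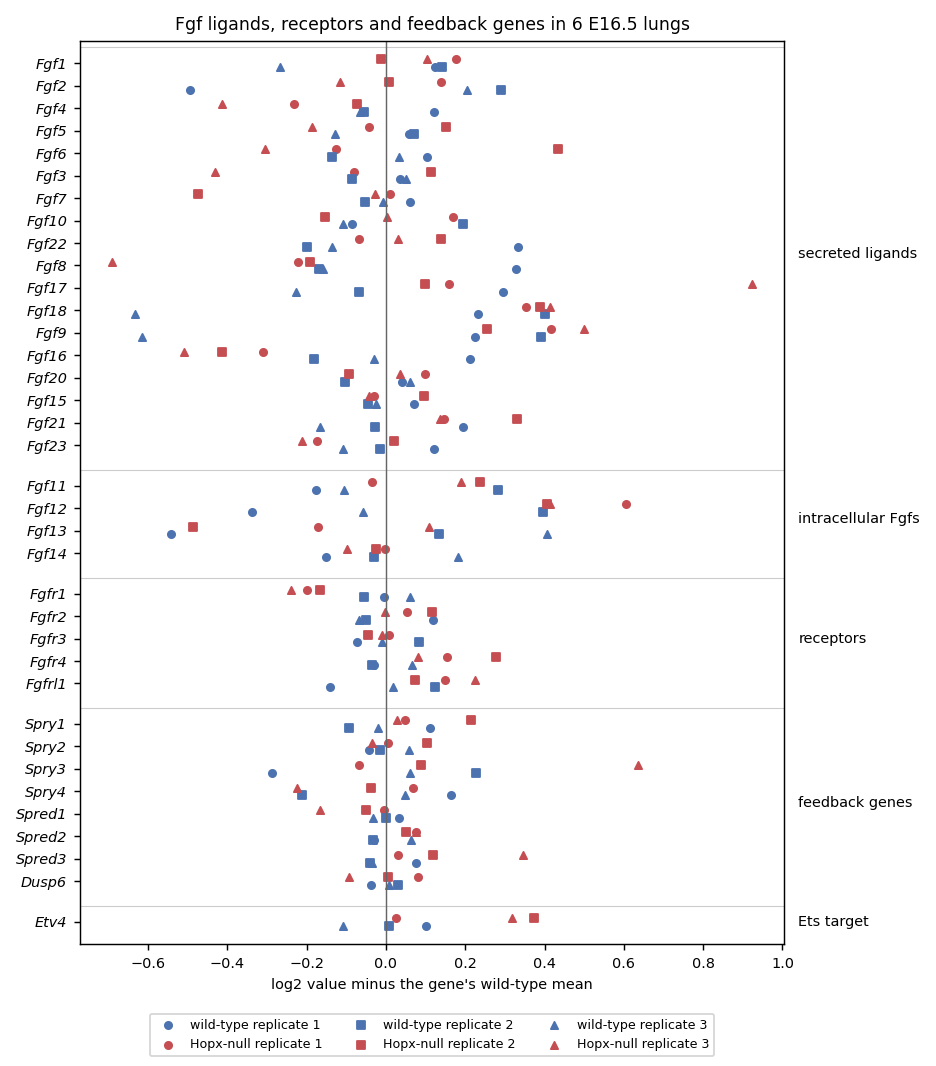
Log2 value of each gene in each lung minus that gene's mean over the 3 wild-type lungs, by role; blue symbols are wild-type and red symbols Hopx-null lungs, and symbol shapes mark the replicate number. Receptors and most feedback genes lie in a narrow band around 0, while Fgf9 and Fgf18 show wild-type replicate 3 far below the other 5 lungs.

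Of the 36 genes, 17 were brighter on average than the median probe set (6.69), 7 lay between the lower quartile (4.29) and the median, and 12 lay below the lower quartile, the dimmest part of the array. The dim genes were mostly ligands, 10 of 18. They included Fgf2, the Fgf4 subfamily of Fgf4, Fgf5 and Fgf6, the endocrine factors Fgf15, Fgf21 and Fgf23, and Fgf16, Fgf17 and Fgf20. Differences in these 10 ranged from -0.41 for Fgf16 to 0.39 for Fgf17. The Fgf17 value rests on Hopx-null replicate 3 (4.99, against 4.23 and 4.17 in the other Hopx-null lungs). Without that lung it was 0.13, and the other Fgf17 probe set gave -0.13 with no overlap between the groups. Fgf16 read 2.68, 2.58 and 2.48 in Hopx-null lungs and 3.20, 2.81 and 2.96 in wild-type lungs. All of these values are below the lower quartile, and the difference was -0.41 (95% interval -0.71 to -0.12).

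Fgf10, the ligand that guides epithelial buds, read 6.24, 5.91 and 6.07 in the Hopx-null lungs, in order of replicate number as throughout, and 5.98, 6.26 and 5.96 in the wild-type lungs. The groups overlap throughout. The log2 difference was 0.01 (SE 0.13, 95% interval -0.30 to 0.31), which as a ratio runs from 0.813 to 1.24. Fgf10 had 1 probe set, between the lower quartile and the median in brightness. Fgf7, a mesenchymal ligand for the same epithelial receptor, read 8.80, 8.32 and 8.77 in Hopx-null lungs and 8.85, 8.74 and 8.79 in wild-type lungs. Hopx-null replicate 2 was low and the other 5 lungs were close together. The difference was -0.16 (95% interval -0.51 to 0.18), and the dimmer probe set of Fgf7 gave 0.10. In the same subfamily, Fgf3 read 6.19, 6.38 and 5.84 in Hopx-null lungs and 6.31, 6.19 and 6.32 in wild-type lungs. Its difference was -0.13 (95% interval -0.48 to 0.22). The remaining member, Fgf22, differed by 0.03.

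Fgf9, which maintains mesenchymal growth, read 7.25, 7.09 and 7.34 in Hopx-null lungs and 7.06, 7.23 and 6.22 in wild-type lungs. Wild-type replicate 3 was the lowest lung by a wide margin, wild-type replicate 1 was just below the Hopx-null lungs and wild-type replicate 2 lay among them. The second Fgf9 probe set also had wild-type replicate 3 lowest, with 6.91, 6.40 and 6.82 in Hopx-null lungs and 6.44, 6.58 and 5.38 in wild-type lungs. Fgf18, a mesenchymal ligand of the Fgf8 subfamily, read 8.97, 9.00 and 9.03 in Hopx-null lungs against 8.85, 9.02 and 7.98 in wild-type lungs, again with wild-type replicate 3 alone at the bottom. The log2 differences were 0.39 for Fgf9 (95% interval -0.22 to 1.00) and 0.39 for Fgf18 (95% interval -0.23 to 1.00). Without wild-type replicate 3 they were 0.08 and 0.07, and with the Y-linked mean as a covariate 0.17 and 0.16. That lung also had the lowest mean of 6 mesothelial markers (9.23, against 9.47 to 9.76 in the others) and of 6 lung mesenchymal markers (10.51, against 10.68 to 11.00). Its mean of 6 endothelial markers was lowest too (10.86, against 10.94 to 11.11). It had the highest mean of 15 cartilage markers (7.47, against 5.48 to 7.29) and of 7 neural and Schwann cell markers (6.64, against 5.50 to 6.25). The part of these in the Fgf9 and Fgf18 readings was not tested. In whole-lung RNA, fewer cells of a type and less RNA per cell cannot be told apart.

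Fgf1 also had its lowest value in wild-type replicate 3, at 11.25, with the other wild-type lungs at 11.64 and 11.66 and the Hopx-null lungs at 11.69, 11.50 and 11.62. Its difference was 0.09 (95% interval -0.23 to 0.41), and its other probe sets gave -0.06 and 0.32. Fgf8, close to the lower quartile, read 4.34, 4.37 and 3.87 in Hopx-null lungs and 4.89, 4.39 and 4.40 in wild-type lungs. The groups did not overlap, but the gap between them was narrow. The difference was -0.37 (SE 0.19, limma, Benjamini-Hochberg adjusted p = 0.878), and with the Y-linked mean as a covariate, which in effect compares Hopx-null lungs with wild-type replicate 1, it was -0.70. With the cartilage mean as a covariate it was -0.60. Without wild-type replicate 1 it was -0.20, and without Hopx-null replicate 3 it was -0.21. The other 5 secreted ligands above the lower quartile (Fgf1, Fgf3, Fgf7, Fgf10 and Fgf22) had differences between -0.16 and 0.09.

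The intracellular Fgf genes Fgf11 to Fgf14 encode proteins that are not secreted and bind voltage-gated sodium channels. Fgf12 had the largest difference of the 36 genes. It read 7.80, 7.60 and 7.61 in Hopx-null lungs and 6.86, 7.59 and 7.14 in wild-type lungs. All Hopx-null values were higher, but wild-type replicate 2 came close to the lowest of them. The log2 difference was 0.48 (SE 0.19, 95% interval 0.03 to 0.92, limma, Benjamini-Hochberg adjusted p = 0.878), a ratio of 1.39. Dropping wild-type replicate 1 gave 0.31, and dropping wild-type replicate 2 gave 0.67. With the Y-linked mean as a covariate it was 0.82 and with the cartilage mean 0.65, with limma's Benjamini-Hochberg adjusted p at 1.00 and 0.969. The other Fgf12 probe sets gave 0.32 and -0.01. Fgf12 is also expressed in heart muscle. The mean of 8 cardiac markers was 9.75, 9.73 and 10.18 in Hopx-null lungs and 9.27, 9.76 and 10.05 in wild-type lungs. Wild-type replicate 1 was lowest for both the markers and Fgf12. Wild-type replicate 3 was second lowest for Fgf12 and second highest for the markers. The part of heart muscle in the Fgf12 difference was not tested. Fgf11, Fgf13 and Fgf14 differed by 0.13, -0.18 and -0.04, with overlap in each.

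All 5 receptor genes were above the median of the probe sets, and all 5 had intervals within 0.5. Fgfr2, the epithelial receptor for Fgf10 and Fgf7, read 12.30, 12.37 and 12.25 in Hopx-null lungs and 12.37, 12.20 and 12.18 in wild-type lungs. The difference was 0.06 (95% interval -0.16 to 0.27). Its dimmer probe sets gave 0.25 and -0.07. Fgfr3 read 11.28, 11.23 and 11.27 in Hopx-null lungs and 11.20, 11.36 and 11.27 in wild-type lungs, a difference of -0.02 (95% interval -0.22 to 0.18). Fgfr3 is strongly expressed in cartilage. The cartilage marker mean was 7.29 and 7.47 in wild-type replicates 2 and 3 and 5.48 to 6.33 in the other lungs. With that mean as a covariate the Fgfr3 difference was 0.025. The part of cartilage in the Fgfr3 readings was not tested.

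Fgfr1, the main mesenchymal receptor, was lower in every Hopx-null lung. It read 8.73, 8.76 and 8.69 in Hopx-null lungs and 8.92, 8.87 and 8.99 in wild-type lungs. The lungs of each genotype were tightly grouped and did not overlap. The log2 difference was -0.20 (SE 0.08, 95% interval -0.39 to -0.01, limma, Benjamini-Hochberg adjusted p = 0.878), a ratio of 0.870. Its other probe sets gave -0.16 and -0.29, with overlap at both, and the difference stayed between -0.23 and -0.16 under every alternative processing run. The 95% interval included 0 whichever lung was left out, and ran from -0.46 to 0.06 with the replicate number as a block. After repeated quantile normalization or median centring it stayed below 0, as it did when dimmer probe sets were left out. It included 0 with the trend and robust options, array weights, the lowest-mean probe set and the mean of all probe sets. With the cartilage or the Y-linked mean as a covariate it included 0 as well. Fgfr4 read 9.43, 9.56 and 9.36 in Hopx-null lungs and 9.25, 9.24 and 9.34 in wild-type lungs. The Hopx-null values were all higher, though the nearest lungs of the 2 genotypes almost met. The difference was 0.17 (95% interval -0.05 to 0.39), and its 4 other probe sets gave 0.25, 0.10, -0.05 and -0.05. Fgfrl1, a receptor-like protein without a kinase domain, read 8.90, 8.83 and 8.98 in Hopx-null lungs and 8.61, 8.88 and 8.77 in wild-type lungs. The groups overlapped, and the difference was 0.15 (95% interval -0.09 to 0.39) at this probe set and 0.19 at the other.

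**Figure D2:**
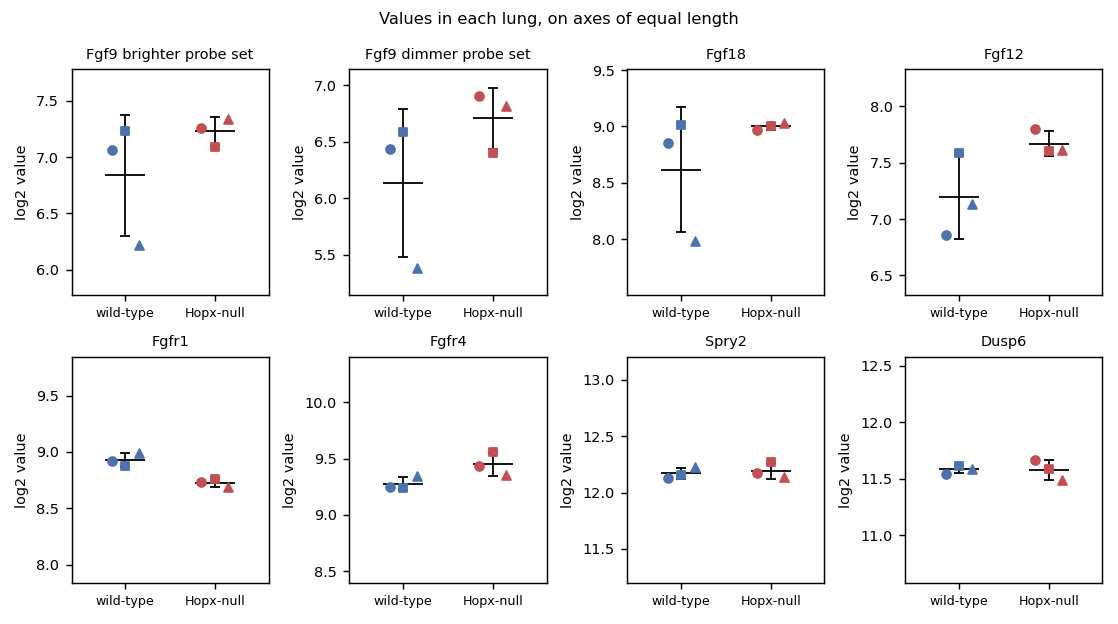
Log2 values of Fgf9 (both probe sets), Fgf18, Fgf12, Fgfr1, Fgfr4, Spry2 and Dusp6 in each lung, on axes that all span 2 log2 units; circles, squares and triangles are replicates 1, 2 and 3, horizontal bars are means and error bars the SD (n = 3). Wild-type replicate 3 is lowest for Fgf9 and Fgf18, and Fgfr1 is grouped by genotype with a difference of -0.20. Spry2, shown at its brighter probe set only, and Dusp6 overlap between genotypes.

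At the brightest probe set of each, the 6 bright feedback genes (Spry1, Spry2, Spry4, Spred1, Spred2 and Dusp6) had differences from -0.07 to 0.10. All intervals of these probe sets together ran from -0.38 to 0.33. Further probe sets of these genes above the median ranged more widely, from -0.39 for Spry2 (95% interval -0.72 to -0.06) to 0.13 for Spred1. Dusp6, the phosphatase that inactivates ERK, read 11.66, 11.59 and 11.49 in Hopx-null lungs and 11.54, 11.61 and 11.59 in wild-type lungs. The genotypes were interleaved. The difference was 0.00 (SE 0.09, 95% interval -0.21 to 0.20), as a ratio 0.866 to 1.15. Spry2, which blunts Fgf10 signalling in the lung epithelium, read 12.17, 12.27 and 12.13 in Hopx-null lungs and 12.13, 12.15 and 12.23 in wild-type lungs, with a difference of 0.02 (95% interval -0.18 to 0.23). Spry1 read 11.03, 11.19 and 11.01 in Hopx-null lungs and 11.09, 10.89 and 10.96 in wild-type lungs. Its difference was 0.10 (95% interval -0.14 to 0.33).

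The windows before the start sites of Dusp6, Spry1 and Spry2 are shown as examples from the bright feedback genes. Each is the 250 bases before the annotated start (RefSeq, build GRCm38.p6), 5' to 3' on the gene's strand. Capitals mark matches on either strand to the Ets letters CCGGAA or AGGAAG, the Capicua letters TGAATGAA or TGAATGGA, the GC box GGGCGG or the TATA box TATAAA.
Dusp6 promoter, chr10:99262981-99263230 (+ strand): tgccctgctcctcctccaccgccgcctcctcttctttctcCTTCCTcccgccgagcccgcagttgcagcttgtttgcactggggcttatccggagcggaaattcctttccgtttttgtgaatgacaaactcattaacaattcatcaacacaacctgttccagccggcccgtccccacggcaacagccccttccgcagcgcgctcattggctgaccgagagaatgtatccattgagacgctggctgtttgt
Spry1 promoter, chr3:37639697-37639946 (+ strand): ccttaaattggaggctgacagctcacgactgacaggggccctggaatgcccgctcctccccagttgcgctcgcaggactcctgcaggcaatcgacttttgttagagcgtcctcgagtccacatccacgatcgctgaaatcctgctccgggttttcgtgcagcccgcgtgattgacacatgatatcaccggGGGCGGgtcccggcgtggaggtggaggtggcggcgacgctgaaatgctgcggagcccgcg
Spry2 promoter, chr14:105896820-105897069 (- strand): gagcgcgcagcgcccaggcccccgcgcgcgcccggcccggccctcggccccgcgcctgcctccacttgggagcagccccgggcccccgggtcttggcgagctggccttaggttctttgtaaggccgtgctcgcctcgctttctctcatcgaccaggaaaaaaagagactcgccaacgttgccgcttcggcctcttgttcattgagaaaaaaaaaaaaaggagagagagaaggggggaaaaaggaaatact
Dusp6 held 1 match to AGGAAG, on the reverse strand, and Spry1 held 1 GC box. No match was found in the Spry2 window, which says only that these letters are not in it. Among 32851 such windows of all genes, 29.5% held AGGAAG, 12% CCGGAA, 32.7% the GC box and 12.4% TATAAA, and the Capicua letters occurred in 1.08% and 1.01%. Of the 36 genes, 26 had 33 windows in this table, of which 6 held AGGAAG, 4 CCGGAA, 22 the GC box and 1 TATAAA. TGAATGAA was found in 2 and TGAATGGA in 1. The matches are a description of letters and not of binding.

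Spry4 read 9.83, 9.73 and 9.54 in Hopx-null lungs and 9.93, 9.55 and 9.81 in wild-type lungs, a difference of -0.06 (95% interval -0.38 to 0.25). The Spred inhibitors, relatives of the Sprouty proteins, also restrain RAS-ERK signalling. Spred2 read 9.38, 9.36 and 9.39 in Hopx-null lungs and 9.28, 9.28 and 9.37 in wild-type lungs, a difference of 0.07. Spred1 differed by -0.07 (95% interval -0.28 to 0.13), and 7 of its 8 probe sets were lower. Spred3 and the dim Spry3 differed by 0.16 and 0.22, with Hopx-null replicate 3 the highest lung for both (5.11 and 4.09). Etv4, an Ets factor induced by Fgf10 in bud tips, was at 4.33 on average, close to the lower quartile. It read 4.24, 4.59 and 4.53 in Hopx-null lungs and 4.32, 4.22 and 4.10 in wild-type lungs. The groups overlapped, and the difference was 0.24 (95% interval -0.05 to 0.53).

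**Figure D3:**
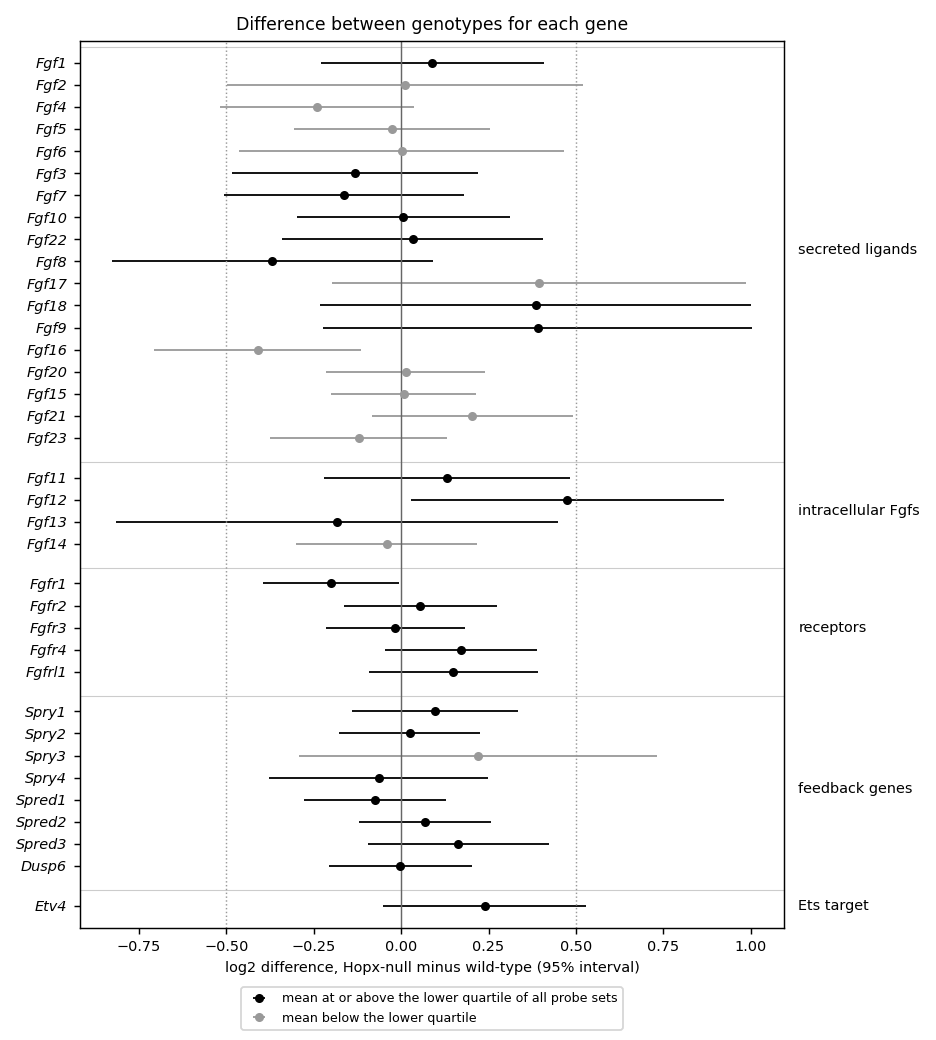
Log2 difference between Hopx-null and wild-type lungs with its 95% interval from limma for each of the 36 genes, by role; grey marks genes whose mean lay below the lower quartile of all probe sets, and dotted lines stand at -0.5 and 0.5. All 5 receptors lie within the dotted lines, and the widest intervals among brighter ligands are those of Fgf9 and Fgf18, which reach 1.00.

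Several genes had more than 1 probe set, and these can be set against each other within a gene. Of 22 such genes, 6 had all probe sets on the same side of 0 (Fgf3, Fgf5, Fgf9, Fgfr1, Fgfrl1 and Etv4) and 16 were mixed. The 4 probe sets of Spry4 ran from -0.22 to 0.35. Spry2 was split as well, and its dimmer probe set read 7.40, 7.12 and 6.91 in Hopx-null lungs and 7.44, 7.58 and 7.58 in wild-type lungs, without overlap, as did 10.1% of all probe sets. There the log2 difference was -0.39 (SE 0.14, 95% interval -0.72 to -0.06, limma, Benjamini-Hochberg adjusted p = 0.878), against 0.02 at the brighter probe set. Hopx-null replicate 3, with the largest 3' to 5' gap, was lowest at the dimmer Spry2 probe set, and the part of that gap was not tested.

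**Figure D4:**
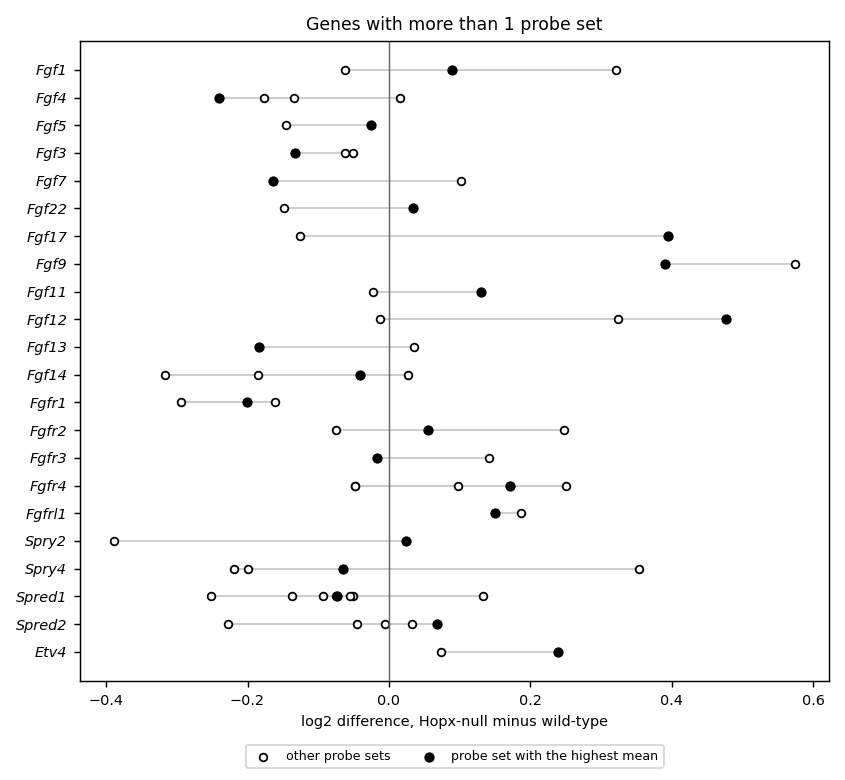
Log2 difference at every probe set of the 22 genes that have more than 1; filled circles mark the probe set with the highest mean and open circles the others. Fgfr1 has its 3 probe sets on the lower side and Fgf9 both of its probe sets on the higher side, whereas Spry2 is split between 0.02 and -0.39.

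Genes around the pathway were read from 4 lists. Among 29 co-receptor and heparan sulphate genes with a probe set annotated to a single gene, 0 passed limma's adjusted threshold. Of these, 18 were higher and 11 lower, with a median of 0.01. Fgfbp3 (0.34), a secreted Fgf carrier, and the syndecan Sdc2 (0.31) differed most upward among those above the median, and the adhesion protein Flrt2 (-0.27) and the glypican Gpc6 (-0.19) most downward. Of the RAS-ERK relay, 22 of 30 listed genes had a probe set annotated to a single gene, and the others were not used. Among the 22, 0 passed, and 9 were higher and 13 lower, with a median of -0.01. In 2 of the 22, the adaptor Crk among them, the groups did not overlap, beside 10.5% of all genes. Crk (-0.22) and the exchange factor Sos1 (-0.31) were lowest, and the scaffold Ksr1 (0.14) and the kinase Map2k1 (0.13) highest. These are differences short of any adjusted threshold.

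Other ERK response genes gave the same count of 0 passing among 26, with 14 higher and 12 lower and a median of 0.01. The early genes Egr2 (0.64) and Egr1 (0.32) had the largest positive values among those above the median, and Fos (-0.41) and Spata13 (-0.22) the largest negative ones, all with overlapping groups. Etv5, the bright partner of Etv4, read 11.28, 11.24 and 10.99 in Hopx-null lungs and 11.21, 11.10 and 10.90 in wild-type lungs, a difference of 0.10 (95% interval -0.20 to 0.40). Among 24 distal lung genes around Fgf10, 0 passed the adjusted threshold, and 14 were higher and 10 lower, with a median of 0.03. Gli1, a hedgehog target in the mesenchyme, differed by 0.90 (95% interval 0.09 to 1.71), with 8.25, 8.43 and 8.76 in Hopx-null lungs and 7.46, 8.33 and 6.95 in wild-type lungs. Wnt2 differed by 0.43, and the epithelial regulator Nkx2-1 by -0.23 and Eya1 by -0.13. In 2 of the 24 genes, Nkx2-1 among them, the groups did not overlap, beside 10.5% of all genes. For Gli1 and Wnt2, wild-type replicate 3 was the lowest lung, as it was for Fgf9 and Fgf18. Wnt2 is also among the 6 lung mesenchymal markers averaged above. Without wild-type replicate 3, Gli1 differed by 0.58 and Wnt2 by 0.22. The same omission gave 0.12 for Fgfbp3 and -0.15 for Fos. Egr2 was 0.33 without wild-type replicate 1, and Egr1 was 0.11 without Hopx-null replicate 1.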

How the data were processed

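RNA of the lungs was primed with a poly(T) oligomer and amplified to biotinylated cRNA, per the labels' protocols. The authors deposited 1 expression value per probe set and array, treated here as log2; the base was judged from their span. Per the submitters' processing notes the tools include RMA and Partek 6.6. RMA gives all arrays the same distribution of probe values before these are summarised to probe sets. A change shared by most genes would therefore be largely hidden. The medians of the deposited values still ran from 6.67 to 6.72 over the arrays.

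Of 45101 probe sets, 64 controls were dropped. The other 45037 went unfiltered into limma 3.58.1 (R 4.3.3; lmFit, then eBayes without trend), with Benjamini-Hochberg adjustment over all of them at a threshold of 0.05. In the annotation table, 34945 probe sets carry 1 gene, 932 several and 9160 none. All 36 genes matched RefSeq by gene identifier. Intervals are those of this fit.

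The gene family and the lists were chosen with earlier results of these data known, and the genes within the family by symbol alone. Full values are given for genes with a known lung role, for any gene past the threshold and for the 4 with the smallest p in each direction above the lower quartile. Of each pathway list the 2 genes with the largest difference in each direction above the median are named. Etv5 and the remaining genes given with values were picked after their values were seen. Nothing in the labels says whether lungs of a genotype shared a litter. The fit was tested on simulated data. Same-numbered lungs did not deviate together (correlations -0.10, -0.12 and 0.18), so the numbers were not taken as pairs.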

Additional observations from a re-analysis of the deposited data

How the results depend on the processing

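No gene of the Fgf pathway passed the adjusted limma threshold under any of the 17 alternatives. The smallest limma adjusted p of the 36 genes was 0.542, for Fgf16 without Hopx-null replicate 1. Among the 18 genes followed it was 0.548. With the replicate number as a block, 1 gene in place of 3 had an unadjusted p under 0.05, and averaging all probe sets of a gene gave 1 as well. The Y-linked and the cartilage covariate each gave 4. Over all genes these settings passed 4.57%, 5.01%, 4.32% and 4.67%. Using only probe sets above the median left 17 genes, with 11 higher, 3 without overlap and a median of 0.067. Among all 11438 genes above the median, 6281 were higher, 1255 did not overlap and the median was 0.016. Leaving out each lung in turn, the count at an unadjusted p under 0.05 ranged from 1 to 2 (3.06% to 7.69% of all genes). The genes without overlap ranged from 6 to 15 (17.2% to 25.1% of all genes) and the median from 0.0048 to 0.049. Overlap was not recounted under the block, the covariates, array weights or the trend option, which change no value.

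Of the 18 genes, 8 kept their sign throughout and 10, mostly near 0, changed it at least once. Repeated quantile normalization gave -0.0018 for Fgf10 and 0.0089 for Dusp6, median centring -0.011 for Fgf10, and array weights -0.031 for Fgf10 and 0.0085 for Dusp6. The lowest-mean probe set gave -0.062 for Fgf1, 0.10 for Fgf7, -0.075 for Fgfr2, 0.14 for Fgfr3 and -0.39 for Spry2, and the mean of all probe sets 0.062 for Fgfr3 and -0.18 for Spry2. With the Y-linked covariate, Fgf1 was -0.03, Fgfr2 -0.066, Fgfr3 0.058, Spry1 -0.018 and Dusp6 0.036. With the cartilage covariate, Fgfr2 was -0.024, Fgfr3 0.025 and Dusp6 0.0089. Leaving out each lung in turn, the range was -0.044 to 0.16 for Fgf1, -0.076 to 0.10 for Fgf10, -0.26 to 0.017 for Fgf3, -0.053 to 0.025 for Fgfr3, -0.015 to 0.054 for Spry2, -0.17 to 0.018 for Spry4 and -0.044 to 0.043 for Dusp6. The cause of these changes was not tested.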
